A study of Homo sapiens with 4 samples.

Results

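The difference in nutlin-3a response between A549 cells with LIMA1 knockdown and control A549 cells was taken gene by gene from all 4 libraries of the study. For each gene, the response of a cell line was the log2 level with nutlin-3a minus the log2 level without it, and the change of response was the response in LIMA1 shRNA cells minus the response in control shRNA cells. Levels are normalized counts (fragment counts divided by a size factor per library), and 1 was added before the logarithm. Genes whose values averaged 150 normalized counts or more over the 4 libraries were kept and long noncoding models named lnc- were left out, which left 9837 of 42113 gene models. Of the others, 17212 were lnc- models and 15064 were under the minimum. The 2 genes just outside it had means of 149.98 and 149.99 and changes of -0.45 and 0.48, and the 2 just inside, GPR115 and NAPB, had means of 150.07 and 150.16 and changes of -0.14 and 0.34.

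A549 is a human lung adenocarcinoma line. The cells had been stably transduced with lentivirus carrying either a negative control short hairpin RNA (shRNA) or one against LIMA1, grown in RPMI with serum, and kept for 24 h without or with nutlin-3a (10 µM). Each of the 4 groups was 1 library, and the labels do not say whether a line was a clone or a pool or how many LIMA1 hairpins were used. The sample titles write si where the protocols write shRNA. The question stated with the series was how p53-driven transcription changed.

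With 1 library per group there were no replicates, no test was possible, and every difference compares libraries. A gene was called when its change reached a size of 1 on the log2 scale, and 95% counting intervals, given in brackets, cover counting error only. Libraries held 15.2 to 16.7 M fragments. LIMA1 itself was measured at 416 normalized counts in untreated control shRNA cells, 68.3 in untreated LIMA1 shRNA cells, 866 in control shRNA cells with nutlin-3a and 133 in LIMA1 shRNA cells with nutlin-3a; further values are given in this order. LIMA1 was therefore lower in LIMA1 shRNA cells in both treatments, and its change of response was -0.11 [-0.56 to 0.35]. The epithelial markers KRT8 (67927 to 82811), KRT18 (55419 to 70306), KRT7 (20085 to 25816), CDH1 (2464 to 4154) and EPCAM (31.1 to 229) were present in all 4 libraries. The 18 immune and endothelial markers summed to between 733 and 1058 per library, of which CD68, also a lysosomal gene of other cells, made up 613 to 897, and CD3E, CD3D, MS4A1 and KDR were at 0 in all 4. In these bulk libraries, fewer cells in a state and less RNA per cell cannot be told apart.

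Nutlin-3a occupies the p53 pocket of the ubiquitin ligase MDM2, so that p53 escapes degradation and activates genes of cell-cycle arrest, apoptosis, DNA repair and its own feedback; through p21 (CDKN1A) and the DREAM and RB repressor complexes, genes of DNA replication and mitosis are shut down. EPLIN, the LIM-domain product of LIMA1, cross-links actin filaments at stress fibres and cell junctions. A separate program matters for the values below: ATF4, a transcription factor whose mRNA is translated preferentially when translation initiation factor eIF2 is phosphorylated, activates genes of amino acid synthesis, amino acid uptake, transfer RNA charging and the stress regulators DDIT3 (CHOP), TRIB3 and CHAC1.

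The lowest changes among genes without shared reads (CHAC1, SESN2 and DDIT3) were in this ATF4 program. Promoters of 3 genes of the program are shown because they carry the letters of a C/EBP-ATF response element. The motif searched was TGATGNAA on both strands (its reverse complement is TTNCATCA), in windows of 300 bases from 250 before to 50 after each annotated start, from RefSeq on GRCh38.p14, matched by gene symbol; the deposited values were made on hg19. The capitals mark the match. The windows are CHAC1 at chr15:40953221-40953520 on the + strand (1 window), JDP2 at chr14:75427772-75428071 on the + strand (1 of its 3 windows) and ASNS at chr7:97872359-97872658 on the - strand (1 of its 2 windows), each printed 5′ to 3′ on the gene's strand.
CHAC1: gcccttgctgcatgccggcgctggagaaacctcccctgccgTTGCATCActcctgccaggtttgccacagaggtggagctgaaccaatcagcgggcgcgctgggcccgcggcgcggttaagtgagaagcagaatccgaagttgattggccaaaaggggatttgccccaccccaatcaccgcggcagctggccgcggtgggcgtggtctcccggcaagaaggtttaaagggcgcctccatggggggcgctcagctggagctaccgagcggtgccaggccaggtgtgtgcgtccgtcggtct
JDP2: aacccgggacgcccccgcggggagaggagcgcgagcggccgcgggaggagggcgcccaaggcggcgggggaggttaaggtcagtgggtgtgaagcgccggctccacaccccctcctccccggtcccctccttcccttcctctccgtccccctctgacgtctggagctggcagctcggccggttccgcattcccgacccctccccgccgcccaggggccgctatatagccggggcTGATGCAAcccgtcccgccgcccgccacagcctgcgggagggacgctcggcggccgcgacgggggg
ASNS: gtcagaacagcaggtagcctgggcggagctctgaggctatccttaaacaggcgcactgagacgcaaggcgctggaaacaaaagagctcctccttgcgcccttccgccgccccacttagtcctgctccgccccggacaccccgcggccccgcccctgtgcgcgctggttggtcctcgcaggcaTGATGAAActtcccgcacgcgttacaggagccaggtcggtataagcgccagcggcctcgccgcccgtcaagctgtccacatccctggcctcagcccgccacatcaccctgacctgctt
The match lay with its first base 209 bases before the start in CHAC1 (TTGCATCA), 16 before it in JDP2 (TGATGCAA) and 68 before it in ASNS (TGATGAAA). Over all promoter windows, 1270 of 35116 (3.62%) held the motif, and by gene symbol 1217 of 27305 (4.46%) held it in any window. Of the ATF4-list genes measured here, 24 were matched and 5 of them (20.8%) held it: CHAC1, ASNS, CEBPG, MTHFD1L and JDP2. Among the called genes with a smaller response that were not marked as sharing reads, 16 were matched and 2 held it. These were CHAC1 and JDP2, both members of that list, so the counts are not separate. The share in the list describes the list and not the change of response. A match describes letters in a window and not a bound site.

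Across all 9837 genes the 2 responses were close. The median change was 0.0053, the quartiles were -0.11 and 0.12, and 95% of genes lay between -0.41 and 0.46. A change of at least 1 (named a larger response) was called for 22 genes (0.224%). A change of at most -1 (named a smaller response) was called for 26 genes (0.264%), which made 48 in all (0.488%). These names follow the sign of the change and not the strength of the response. Of the 26, 10 were called lower with nutlin-3a in both lines and 10 in LIMA1 shRNA cells only. Most of these fell more in LIMA1 shRNA cells. CHAC1, DDIT3, POLDIP2, HCG11 and JDP2 fell only there and were higher with nutlin-3a in control shRNA cells, by 0.22 to 0.57. Of the 22, 4 were called lower in both lines and 1, PPP1R9B, in control shRNA cells only. The 4 fell less in LIMA1 shRNA cells, and PPP1R9B had a response of -2.06 in control and 0.04 in LIMA1 shRNA cells. A size of 0.5 in either direction was passed by 335 genes (3.41%). The median counting interval reached 0.21 to either side of the change, but 0.77 in the 123 genes with any value under 50, which held 23 of the 48 calls. Among the 5473 genes with all 4 values of at least 500 it reached 0.16 and 3 genes were called. Among the 48 called genes, 14 (29.2%) were marked because a value in the range that could be checked was not whole fragments. The share was 14.7% of the genes that could be checked. The bases differ, because the 48 include ALDH3B1 and TRIB3, which were not checked. Marked genes share reads with another gene model, their values depend on how reads were assigned, and no interval is given for them. Of the 48, 16 (33.3%) passed the minimum only through their highest library, the mean of the other 3 being under 150, against 236 (2.40%) of all genes.

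**Figure D1:**
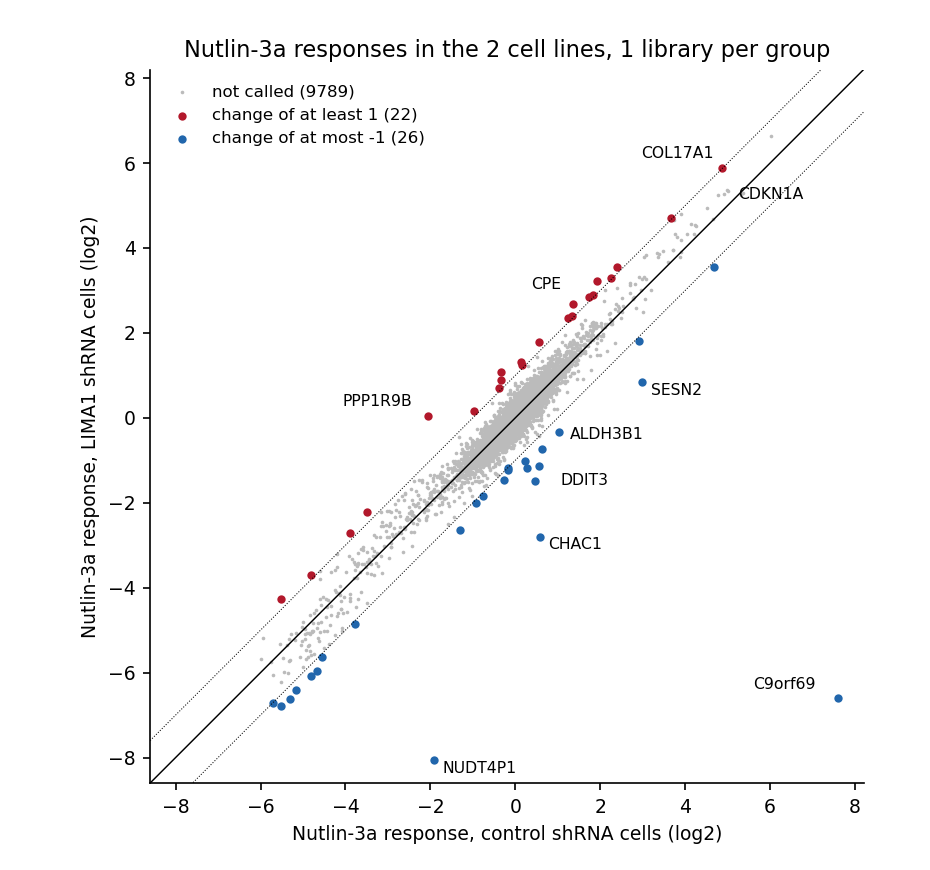
Response to nutlin-3a (log2) in control shRNA cells (horizontal axis) and LIMA1 shRNA cells (vertical axis), 1 point per gene. The 22 genes with a change of at least 1 and the 26 with one of at most -1 are coloured. Most points lie along the diagonal of equal responses; SESN2 lies below it, at 2.99 and 0.84, and CPE above it, at 1.37 and 2.69.

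By direction, 342 genes (3.48%) were higher and 512 (5.2%) lower with nutlin-3a in control shRNA cells, and 458 (4.66%) were higher and 560 (5.69%) lower in LIMA1 shRNA cells. To sort genes without favouring either line, the mean of both responses was used. This mean was 1 or higher in 388 genes, which had a median response of 1.35 in control and 1.51 in LIMA1 shRNA cells. Their change was above 0 for 301 and below 0 for 87, with a median of 0.17 and quartiles of 0.02 and 0.35; the median line difference (LIMA1 shRNA minus control shRNA) was -0.03 untreated and 0.15 with nutlin-3a. It was -1 or lower in 515 genes, which were split almost evenly, 263 above 0 and 252 below, with a median change of 0.0076 and median responses of -1.86 and -1.82. Thus the genes of the first group mostly had a slightly larger response in LIMA1 shRNA cells, by less than the size used for a call, and those of the other had no common direction. Calls came to 14 of the 388 (11 larger and 3 smaller; 3.61%), 18 of the 515 (5 larger and 13 smaller; 3.50%) and 16 of the remaining 8934 (6 larger and 10 smaller; 0.179%).

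The change of response also equals the line difference with nutlin-3a minus the line difference without it, so each called gene can be placed by the treatment in which the lines were further apart. Levels in LIMA1 shRNA cells were higher by at least 1 for 39 genes (0.396%) untreated and 49 (0.498%) with nutlin-3a, and lower by at least 1 for 64 (0.651%) and 73 (0.742%). Of the 26 genes with a smaller response, 9 had the wider line difference untreated: CHAC1, SESN2, DDIT3, TSC22D3, STC2, JDP2, TRIB3, NUPR1 and TMEM79. By construction such genes are higher in untreated LIMA1 shRNA cells. None of the 9 was seen to share reads. CHAC1 and TMEM79 passed the mean minimum only through their untreated LIMA1 shRNA library, the same library that sets their wider difference. NUPR1 passed it only through its LIMA1 shRNA library with nutlin-3a. CHAC1, TMEM79 and NUPR1 therefore do not support the count of 9. The other 17 of the 26, 6 of them marked as sharing reads, had the wider difference with nutlin-3a. Of the 22 genes with a larger response, 10 had the wider difference untreated, which by construction makes them lower in untreated LIMA1 shRNA cells, and 12 had it with nutlin-3a. All 4 values enter each change, so a single library that stands apart cannot be told apart from a change of response.

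**Figure D2:**
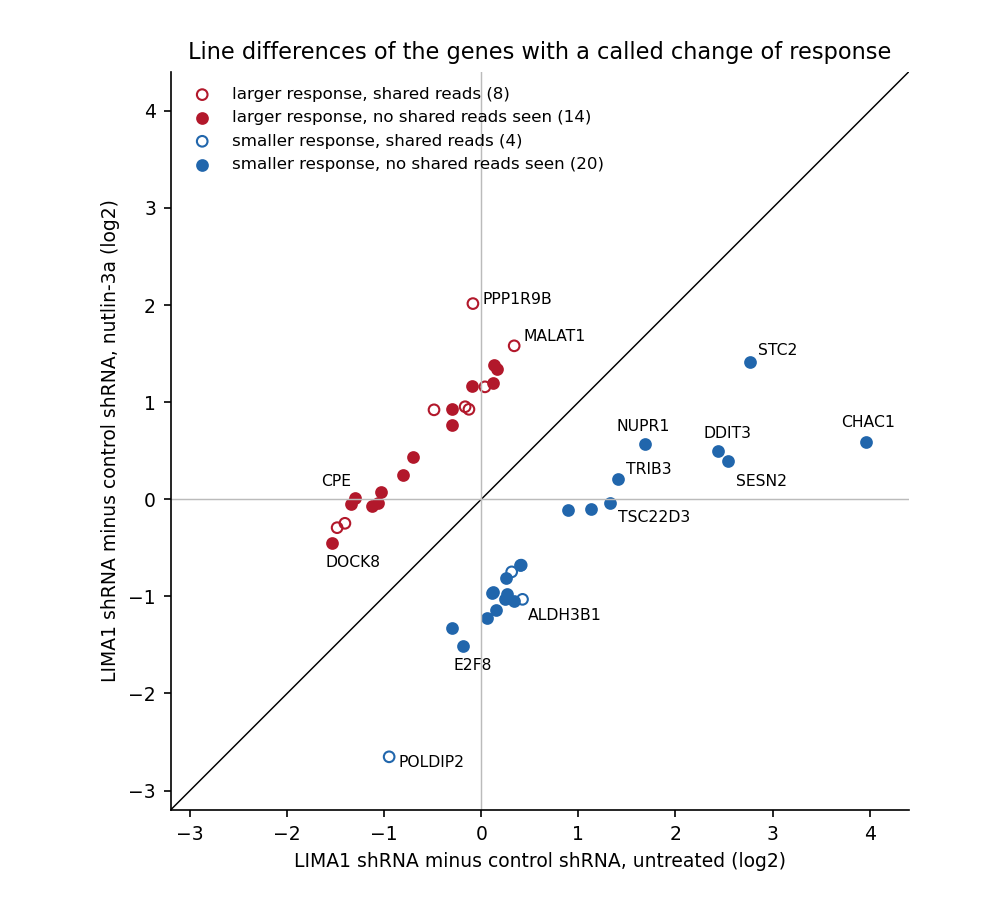
Line difference (LIMA1 shRNA minus control shRNA, log2) untreated (horizontal axis) and with nutlin-3a (vertical axis) of the called genes, 1 point per gene, with open circles for genes with shared reads; C9orf69 and NUDT4P1 lie outside the axes. CHAC1, SESN2 and DDIT3 lie far to the right at 3.96, 2.54 and 2.44 untreated but between 0.39 and 0.59 with nutlin-3a.

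Among the lists, which were chosen with earlier results of these data known, genes of the ATF4 amino acid response had the lowest median change. Of its 32 genes, 30 were measured; 26 had a change below 0 and 4 above, 15 were at -0.5 or lower, and 7 were called smaller and 0 larger, against 0.264% and 0.224% of all genes. The median change was -0.50, beside 0.01 over all genes. Of the 7 called, CHAC1 and NUPR1 passed the mean minimum only through their highest library, so these 2 calls do not support the count. The median line difference of the list was 0.73 untreated and 0.07 with nutlin-3a, and its median response was -0.20 in control and -0.93 in LIMA1 shRNA cells. In untreated cells 11 of the 30 were called higher and 1 lower in LIMA1 shRNA cells (0.396% and 0.651% of all genes), and with nutlin-3a 3 were called higher and 1 lower (0.498% and 0.742% of all genes). As a response, 14 of the 30 were lower with nutlin-3a than without in LIMA1 shRNA cells (5.69% of all genes) and 3 in control shRNA cells (5.2% of all genes). The counting interval of the change lay below 0 in 22 genes and above 0 in 1.

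Among the stress regulators, CHAC1, which breaks down glutathione, was measured at 37.7, 602, 56.6 and 85.8 normalized counts. Only the untreated LIMA1 shRNA library was high, and the responses of 0.57 and -2.80 gave a change of -3.37 [-4.05 to -2.71]. DDIT3, the transcription factor CHOP, had the same shape at 124, 680, 172 and 242, with responses of 0.46 and -1.48 and a change of -1.95 [-2.34 to -1.56]. TRIB3, a pseudokinase that dampens AKT and ATF4 signalling, was expressed at far higher counts, 1683, 4467, 1403 and 1622, and its change was -1.20 [-1.33 to -1.07]. ATF4 mRNA itself was at 4580, 7783, 3430 and 4059, again highest in the untreated LIMA1 shRNA library, with a change of -0.52. STC2, a secreted glycoprotein hormone, differed between the lines in both treatments: it was at 432, 2950, 176 and 468, lower with nutlin-3a in both lines (-1.29 and -2.65) and higher in LIMA1 shRNA cells in both treatments (2.77 and 1.41). JDP2, a bZIP repressor that dimerizes with JUN, was at 206, 454, 241 and 225, a change of -1.23 [-1.59 to -0.88].

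SESN2 and NUPR1, both in the ATF4 list, were higher with nutlin-3a in each line. SESN2, a sestrin that restrains mTORC1 and is also a p53 target, was at 129, 756, 1035 and 1357. Its response was 2.99 in control and 0.84 in LIMA1 shRNA cells, and the levels with nutlin-3a differed by 0.39, so that the change of -2.15 [-2.44 to -1.87] lay in the untreated libraries. NUPR1, a small stress-induced chromatin protein, was at 10.4, 35.6, 291 and 431, and its change of -1.12 [-2.15 to -0.19] rests on few untreated fragments. TSC22D3, the glucocorticoid-induced leucine zipper GILZ, was in no list. It was at 284, 714, 440 and 429, highest in the untreated LIMA1 shRNA library as CHAC1 and DDIT3 were, with responses of 0.63 and -0.74 and a change of -1.37 [-1.64 to -1.09].

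**Figure D3:**
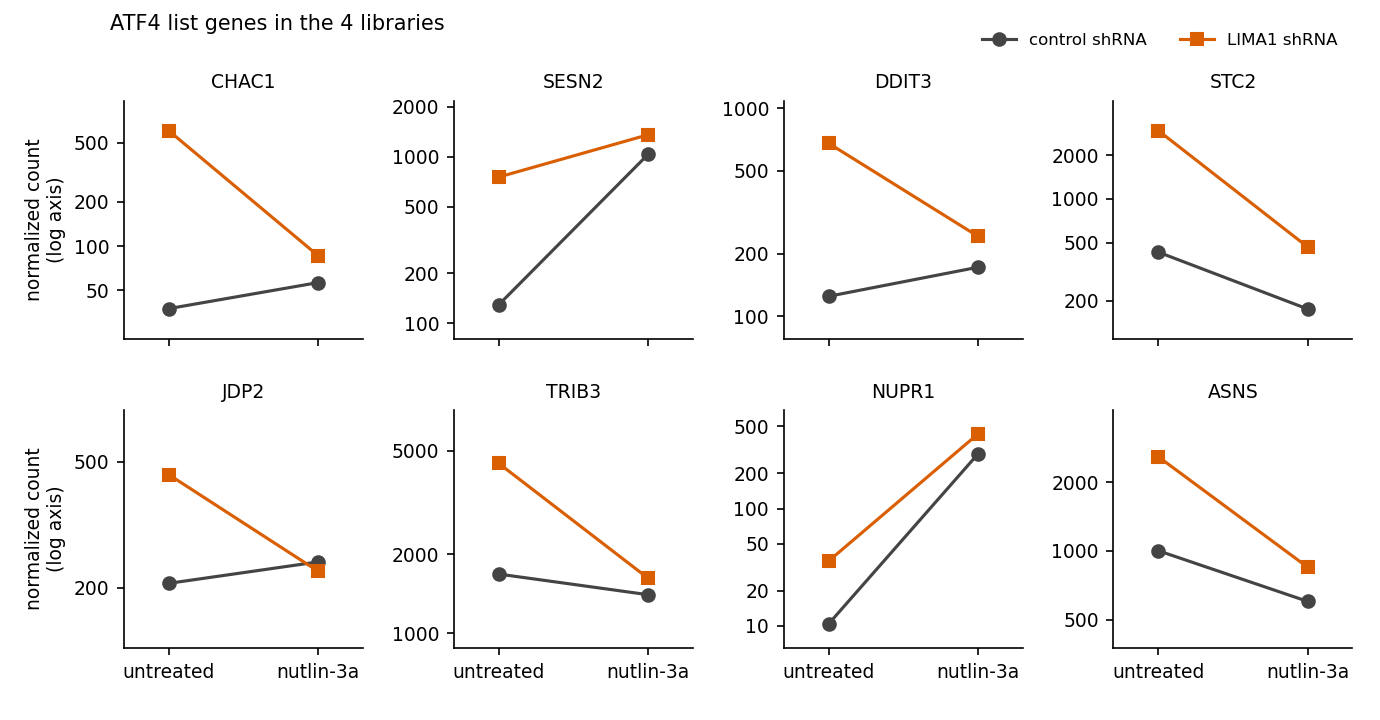
Normalized counts (log axis, its own range in each panel) of 8 ATF4-list genes in untreated and nutlin-3a-treated cells, with circles for control and squares for LIMA1 shRNA cells, 1 library per point. In CHAC1, DDIT3, STC2 and TRIB3 the highest point is the untreated LIMA1 shRNA library (602, 680, 2950 and 4467), while in SESN2 and NUPR1 both nutlin-3a libraries are highest.

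The amino acid enzymes of the list had smaller differences. ASNS, which makes asparagine, was at 1001, 2584, 601 and 848, with a change of -0.87 [-1.05 to -0.69]. PCK2 (mitochondrial phosphoenolpyruvate carboxykinase) had a change of -0.94, GPT2 (alanine transaminase) one of -0.90, PSAT1 (serine synthesis) one of -0.85, MTHFD2 (mitochondrial folate cycle) one of -0.84 and the bZIP factor CEBPG one of -0.85. All of these stayed inside the call size. The list was not uniform: the change was -0.22 for CTH, which makes cysteine, 0.09 for PHGDH, the first enzyme of serine synthesis, and 0.49 for ATF5, the highest of the list.

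Changes in 2 related lists were also mostly below 0. Of the 20 cytosolic aminoacyl-tRNA synthetases, which charge transfer RNAs, 18 were below 0 and 0 were called; the median was -0.26, the range -0.72 to 0.07, and the lowest were CARS (-0.72), GARS (-0.67), AARS (-0.46) and TARS (-0.41). Of 12 amino acid transporters, 9 were below 0, with a median of -0.25 and values of -0.73 for SLC38A2, -0.66 for SLC1A5, -0.55 for SLC1A4 and 0.40 for SLC7A6. Several of these genes are also ATF4 targets, so the lists are not separate evidence. The list of unfolded protein response genes of the endoplasmic reticulum had no common direction, with 19 of 31 genes above 0 and 12 below. Of these genes 0 were called, the median was 0.02, and the range ran from -0.48 for HERPUD1 to 0.33 for MANF. The change of XBP1 was -0.45 and that of DNAJB9 0.26.

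**Figure D4:**
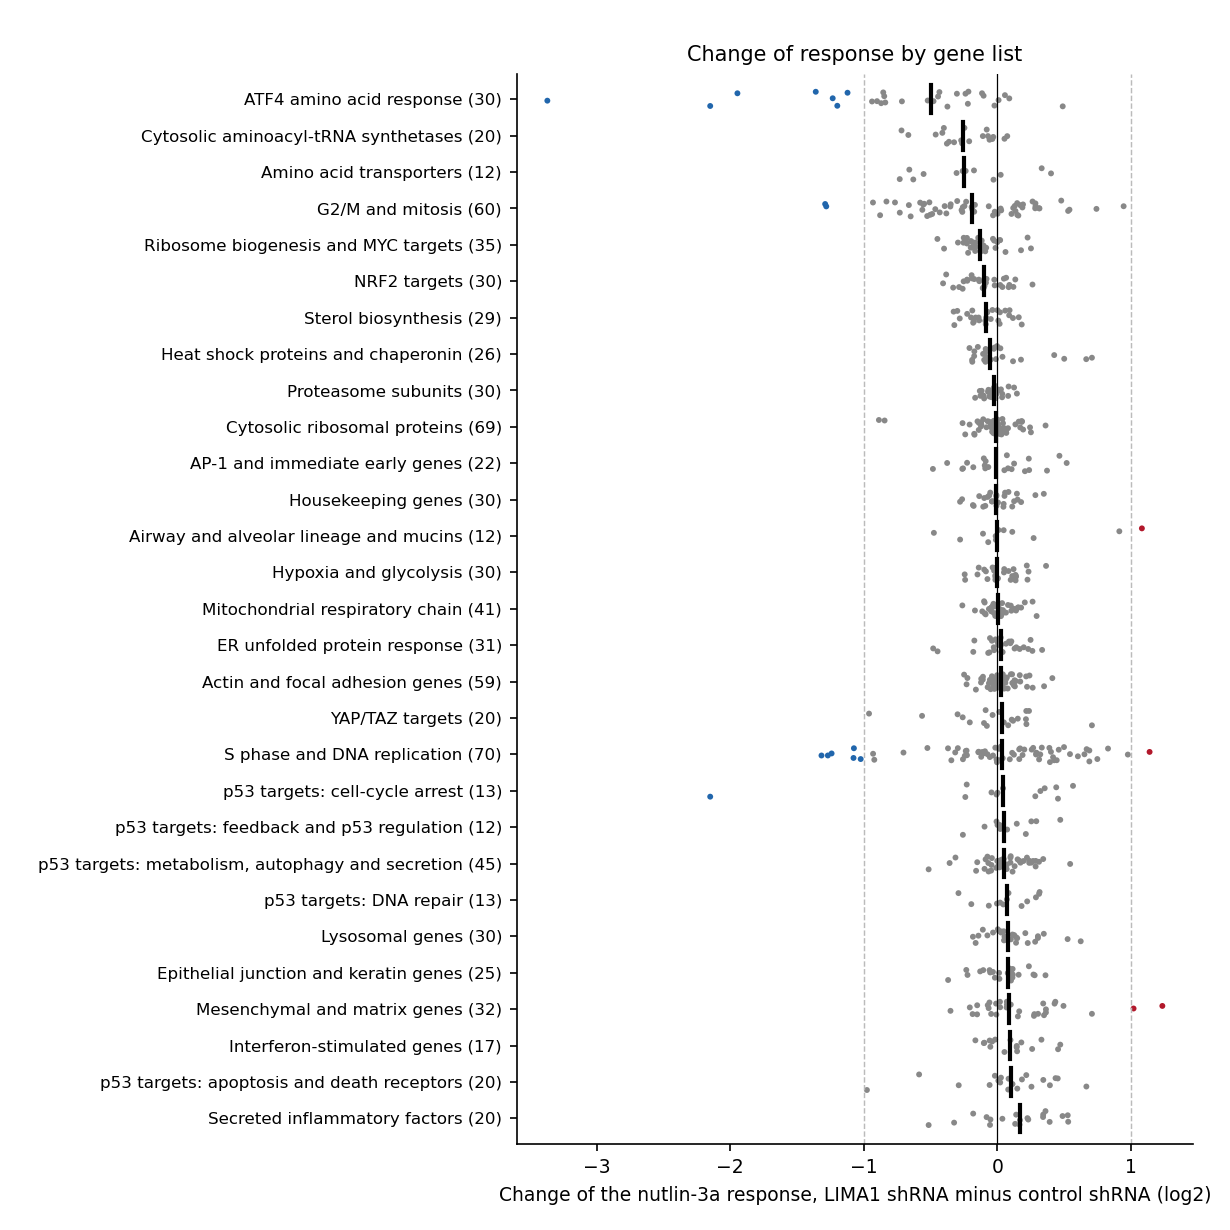
Change of response (log2) of every measured gene in each gene list, 1 point per gene with the list's median marked. The ATF4 list has the lowest median, -0.50, followed by the aminoacyl-tRNA synthetases at -0.26 and the amino acid transporters at -0.25; the other medians shown lie between -0.19 and 0.17.

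Most p53 target genes were higher with nutlin-3a in both lines, and 1 had a called change of response. Over 5 lists, 101 targets were measured: 58 were called higher with nutlin-3a in control and 60 in LIMA1 shRNA cells, 57 of them in both. The change was above 0 in 70 and below 0 in 31, with a median of 0.07 beside 0.01 over all genes. In the 388 genes with a mean response of 1 or higher, the median was 0.17, with 301 above 0 and 87 below. The p53 targets therefore did not exceed the general shift of genes higher with nutlin-3a. Calls were 0 larger and 1 smaller, SESN2, beside 0.224% and 0.264% of all genes. The medians by role were 0.04 for 13 arrest genes, 0.10 for 20 apoptosis genes, 0.07 for 13 repair genes, 0.05 for 12 feedback genes and 0.05 for 45 genes of metabolism, autophagy and secretion, with some genes in more than 1 list. CDKN1A, the cyclin-dependent kinase inhibitor p21, was at 1066, 1178, 34078 and 48106, with responses of 5.0 and 5.35 and a change of 0.35 [0.23 to 0.47]. MDM2, which ubiquitinates p53, was at 1844, 1857, 27580 and 33982, with a change of 0.29 [0.20 to 0.39]. It was not checked for shared reads, and its untreated values were not whole fragments (1956.41 in control and 1876.8 in LIMA1 shRNA cells). The line difference of CDKN1A was 0.14 untreated and 0.50 with nutlin-3a, and that of MDM2 was 0.01 and 0.30, so both genes differed between the lines mainly with nutlin-3a.

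At the edges of the p53 lists, 3 genes had a change of 0.5 or more: TNFRSF10D (0.67), a decoy receptor for the death ligand TRAIL, BTG2 (0.57), an antiproliferative regulator of mRNA decay, and KITLG (0.54), the ligand of KIT. A change of -0.5 or less was seen for SESN2, PMAIP1 (-0.98), BBC3 (-0.59) and GDF15 (-0.51). PMAIP1 and BBC3 encode NOXA and PUMA, BH3-only activators of mitochondrial apoptosis, and GDF15 a secreted stress cytokine. PMAIP1 was at 251, 708, 367 and 526, so LIMA1 shRNA cells had the higher level in both treatments and the lower level with nutlin-3a than without. GDF15 was at 370, 692, 3002 and 3918, also higher in LIMA1 shRNA cells in both treatments. Other targets with changes above 0 were SFN (0.45), TP53INP1 (0.45), SESN1 (0.44) and POLH (0.31), and the change of DDB2, a sensor of ultraviolet DNA damage, was -0.29.

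Genes of cell division were lower with nutlin-3a in both lines. Of the 130 measured genes of the S-phase and G2/M lists, 121 were called lower with nutlin-3a in control and 120 in LIMA1 shRNA cells, 120 in both. Their change of response was above 0 in 62 and below 0 in 68, the median was -0.01, and 1 was called larger and 8 smaller, beside 0.224% and 0.264% of all genes. The 70 S-phase genes had a median of 0.04 and the 60 G2/M genes a median of -0.19; over the genes with all 4 values of at least 50 the medians were 0.16 (51 S-phase genes) and 0.01 (32 G2/M genes), so both were higher without the genes of few fragments and the G2/M median changed sign.

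All 8 of the smaller calls had a mean level under 50 normalized counts with nutlin-3a, and for these genes a change below 0 means that less was left in LIMA1 shRNA cells. KIF4A, a chromosome-bound kinesin, was at 1437, 1592, 55.6 and 24.7, a change of -1.29 [-2.0 to -0.60]. AURKB, the chromosomal passenger kinase, was at 833, 870, 28.8 and 11.8, a change of -1.28 [-2.30 to -0.32]. MCM10, a replication initiation factor, was at 1092, 1294, 22.8 and 10.7, a change of -1.27 [-2.35 to -0.24]. These 3 genes were alike in untreated cells and differed only in what was left with nutlin-3a. E2F8, an atypical E2F repressor, had 7.94 and 2.14 left (-1.32 [-3.51 to 0.58]), and the others were CLSPN (-1.24), a mediator of the replication checkpoint, DTL (-1.08) and CDT1 (-1.07), a ubiquitin ligase adaptor and the origin licensing factor it degrades, and FAM111B (-1.02 [-2.50 to 0.32]). The intervals of E2F8 and FAM111B include 0, and E2F8 passed the mean minimum only through its highest library.

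**Figure D5:**
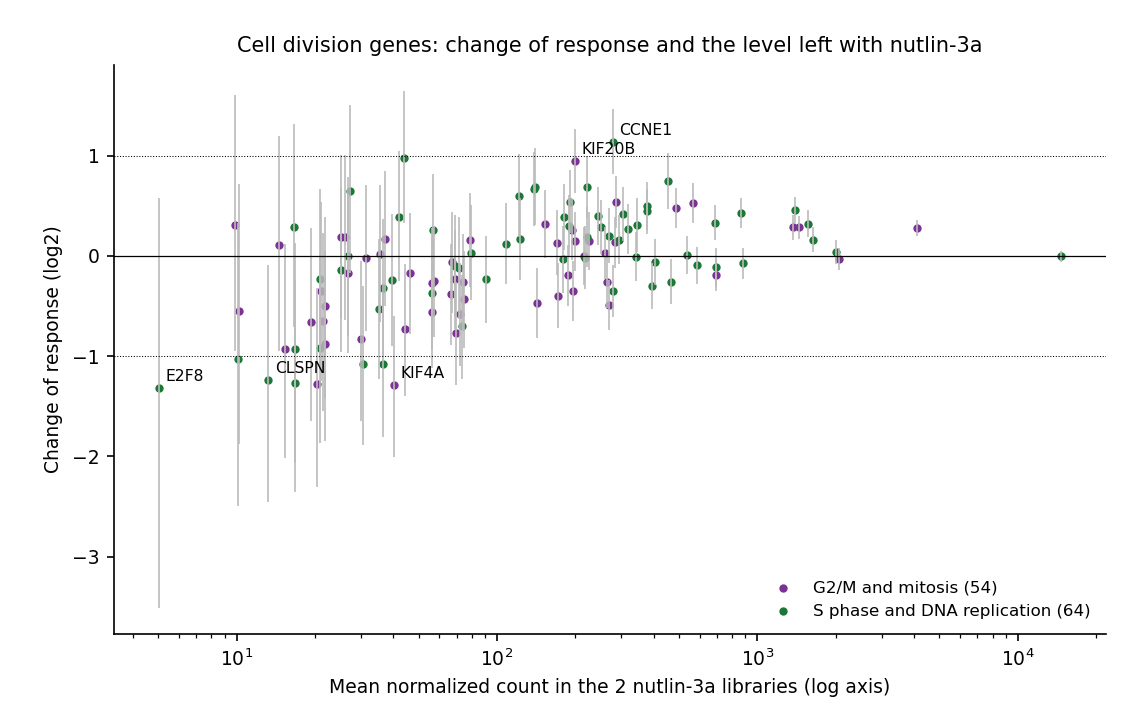
Change of response (log2) of the cell division genes without shared reads against the mean level in the 2 nutlin-3a libraries (normalized counts, log axis), with lines for the 95% counting intervals. The 8 genes called smaller all lie under 50 normalized counts, where the points spread most, and CCNE1, called larger, lies above it.

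CCNE1, cyclin E1, which drives entry into S phase, was the 1 larger call of these lists. It was at 464, 284, 236 and 320: lower with nutlin-3a in control shRNA cells (-0.97), slightly higher in LIMA1 shRNA cells (0.17), a change of 1.14 [0.82 to 1.46]. Outside the lists, CENPH, a kinetochore subunit, was at 554, 520, 48.6 and 110 (1.26 [0.75 to 1.79]), and CHTF18, a subunit of an alternative sliding-clamp loader, was at 293, 329, 18.9 and 49.3 (1.18 [0.41 to 2.0]). Both were lower with nutlin-3a in each line but less so in LIMA1 shRNA cells, as was ZNF367, a zinc finger protein, at 319, 348, 5.96 and 17.2 (1.26 [-0.00 to 2.65]). CHTF18 and ZNF367, like E2F8 on the other side, passed the mean minimum only through their highest library, and the interval of ZNF367 includes 0. These calls do not support a direction. Without them, genes of replication and mitosis were still called in both directions, CCNE1 and CENPH being larger calls. KIF20B, a kinesin of cytokinesis in the G2/M list, had a change of 0.95 [0.63 to 1.27], inside the call size. Of the 515 genes lower with nutlin-3a, the 77 left under 50 normalized counts had a median change of -0.17 with 3 larger and 9 smaller calls, the 197 left at 50 to 200 a median of 0.08 with 1 and 3, and the 241 left at 200 or more a median of 0.0011 with 1 and 1. The median counting interval reached 0.82, 0.42 and 0.22 to either side in these groups.

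Of the 10 genes with a larger response and the wider line difference untreated, several had close levels in both lines with nutlin-3a. CPE, carboxypeptidase E, which trims peptide hormone precursors, was at 265, 107, 686 and 694, a line difference of -1.3 untreated and 0.02 with nutlin-3a and a change of 1.32 [0.97 to 1.68]. SYTL2, a RAB27 effector in vesicle docking, was at 79.2, 30.7, 302 and 293, a change of 1.3 [0.67 to 1.95]. SYTL2 passed the mean minimum only through its highest library, so its call does not support a direction. MCC was at 126, 61.4, 302 and 317 (1.10 [0.62 to 1.6]). The same shape at a very low start was seen in COL17A1, the hemidesmosomal collagen XVII, at 42.4, 19.8, 1256 and 1219, with responses of 4.86 and 5.87 (1.02 [0.28 to 1.8]). THSD1 (1.05) and FAM196A (1.05) were higher with nutlin-3a in both lines as well. FAM196A passed the mean minimum only through its highest library. NEURL1B differed, at 277, 95, 213 and 155, lower in LIMA1 shRNA cells in both treatments with a change of 1.08.

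Of the 12 genes with a larger response and the wider line difference with nutlin-3a, 6 shared reads, CENPH, CHTF18 and ZNF367 are given above, and LAMA3, MUC16 and LRP1 were the others. LAMA3, the laminin alpha 3 chain of the epithelial basement membrane, was at 278, 225, 220 and 420, with responses of -0.33 and 0.90 and a change of 1.23 [0.89 to 1.58]. MUC16, a membrane mucin that carries the CA125 epitope, was at 252, 273, 282 and 649, a change of 1.08 [0.77 to 1.40]. LRP1, an endocytic receptor of the LDL receptor family, was at 878, 711, 3124 and 5295, with responses of 1.83 and 2.90 and a change of 1.07 [0.91 to 1.22]. In each of these 3 genes the LIMA1 shRNA library with nutlin-3a was the highest of the 4. MUC5B, a gel-forming airway mucin, had the same shape at 24268, 26820, 29917 and 62248, a change of 0.91 [0.88 to 0.94], inside the call size.

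ALDH3B1, an aldehyde dehydrogenase that oxidizes lipid-derived aldehydes, had responses of opposite sign. It was at 2433, 3070, 5001 and 2427, a response of 1.04 in control shRNA cells and of -0.34 in LIMA1 shRNA cells, with a change of -1.38 [-1.48 to -1.27]. Its control library with nutlin-3a stood above the other 3. ALDH3B1 was above the range checked for shared reads, and its values were not all whole fragments (2580.87, 3102.02, 5038.35 and 2263.67). Its interval is therefore uncertain. The remaining called genes not marked as sharing reads were TMEM79 (-1.0), TFAP4 (-1.07), an E-box transcription factor, and PLCXD3 (-1.07). TMEM79, TFAP4 and PLCXD3 all passed the mean minimum only through their highest library, so their calls do not support a direction. Counting error was then taken into account by asking that the nearer bound of the interval pass the call size (chosen after seeing the data). Among genes not marked as sharing reads, 7 genes of smaller response passed and 0 of larger response. They were CHAC1 (nearer bound -2.71), SESN2 (-1.87), DDIT3 (-1.56), ALDH3B1 (-1.27), TSC22D3 (-1.09), STC2 (-1.07) and TRIB3 (-1.07). Of the 7, 5 are in the ATF4 list, which holds 30 of the 9837 genes and was chosen with earlier results known. ALDH3B1 was not checked for shared reads, so its place among the 7 is uncertain. CHAC1 passed the mean minimum only through its untreated LIMA1 shRNA library.

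Several called genes of extreme value shared reads. C9orf69 was at 1.63, 210, 510 and 1.20, a change of -14.19, and NUDT4P1 at 359, 394, 95.1 and 0.488, a change of -6.15. A near-identical model, NUDT4P2, which was under the minimum, was at 1.66, 5.79, 215 and 312; the sum of both was 361, 400, 310 and 313, and its change of response was -0.14. The change of NUDT4P1 was thus not present in the sum. POLDIP2 (-1.70), HCG11 (-1.46), PPP1R9B (2.10), GTF2IP1 (1.41), MALAT1 (1.24), DHRS4-AS1 (1.19), DOCK8 (1.16), EME1 (1.12), NANOS1 (1.12), LINC00657 (-1.09), LINC00339 (-1.06) and FBXO22-AS1 (1.05) also had values that were not whole fragments. Of the genes with shared reads, C9orf69, POLDIP2, EME1, NANOS1, LINC00657 and FBXO22-AS1 passed the mean minimum only through their highest library. Whether counting used the strand was not stated in the labels, so antisense models such as DHRS4-AS1 and FBXO22-AS1 cannot be told apart from their partners.

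The structural and metabolic lists held few calls; the values that follow are changes of response unless stated. Of 59 actin cytoskeleton genes, the group nearest to the function of EPLIN, 35 were above 0 and 24 below, 0 were called, and the median was 0.02. The 20 YAP targets, which respond to cytoskeletal tension, had a median of 0.03, with CTGF the lowest at 308, 180, 266 and 79.3 (-0.96). The 25 epithelial genes had a median of 0.08 and the 32 mesenchymal and matrix genes 0.09, with 2 larger calls, the LAMA3 and COL17A1 described above, and FSTL1 at 0.71. Of 30 lysosomal genes 24 were above 0 with a median of 0.08, among them MCOLN1 (0.62), a lysosomal calcium channel, TFEB (0.53), the regulator of lysosome genes, GLA (0.35) and NEU1 (0.30). Of 20 measured genes of secreted inflammatory factors 14 were above 0 with a median of 0.17, among them complement C3 (0.53), HGF (0.53) and SERPINE2 (0.49).

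In the other direction, 29 of 35 ribosome biogenesis genes were below 0 with a median of -0.13, and 21 of 30 targets of the antioxidant regulator NRF2 with a median of -0.10, GCLC, which limits glutathione synthesis, being at -0.41. Of 29 sterol synthesis genes 19 were below 0 (median -0.08), and of 26 heat shock genes 18 were (median -0.06), although HSPA1B (0.71), HSPA1A (0.66), BAG3 (0.50) and HSPA8 (0.43) were the furthest from 0; HSPA1A and HSPA1B are near-identical, so their split is uncertain. The 69 ribosomal protein genes had a median of -0.01, with RPL7 at -0.89, and the 30 housekeeping, 30 proteasome and 41 respiratory chain genes had medians of -0.01, -0.02 and 0.01. The 17 measured interferon-stimulated genes had a median of 0.10, the 22 AP-1 and early response genes -0.01, the 30 hypoxia genes -0.00045 and the 12 airway genes, with MUC16 as a larger call, -0.0017.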

How the data were processed

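RNA was sequenced from 4 A549 cell populations, 1 library per group. The deposited files hold 1 signal value per gene. Per the submitters' processing notes the build is hg19 and the tools were Cuffnorm 2.2.1, Bowtie2 2.0.12 and bcl2fastq 1.8.3, whose settings and gene models are not stated there. From the values, the authors' signal is a fragment count divided by 1 size factor per library, not by gene length: 1 fragment was worth from 0.943 to 1.07 across libraries. Between 0.5 and 1000 fragments, 85.5% to 86.3% of values lay within 0.1 of a whole number, too few for a count test. A gene with a value in that range that was not whole was taken to share reads (1006 genes; 3008 could not be checked). Differences were taken on log2(value + 1), which understates those of low genes; a size of 1 made a call. Intervals are Woolf 95% intervals of the ratio of ratios of fragments with 0.5 added, and leave out all error but counting, with no molecular identifiers to mark copies. The genes and the 30 gene lists were chosen with earlier results of these data known. Named genes are CDKN1A, MDM2 and LIMA1, the 15 highest and 15 lowest changes (without small RNAs and LOC names), genes called in opposite directions in the 2 lines, and up to 4 members per list with the largest absolute change; others named by the text were chosen after their values were seen, such as LRP1, NUDT4P2 and list members beyond those 4. Some genes that this rule names are left out. Groups came from the sample titles. The calls were checked on simulated Poisson counts drawn from each gene's mean over the libraries, with planted changes. That check held no nutlin-3a response common to both lines and no shared reads. It does not cover calls that rest on few fragments or on shared reads. Alternatives were other pseudocounts, filters, scalings and call sizes, and leaving out genes with shared reads. Python 3.11.15, numpy 2.4.6, pandas 2.3.3 and matplotlib 3.10.9 were used.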

Additional observations from a re-analysis of the deposited data

Results flagged for a closer look

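C9orf69 was higher with nutlin-3a in control shRNA cells (a response of 7.6) and lower in LIMA1 shRNA cells (-6.59), the 1 gene of 9837 called in opposite directions in the 2 lines. Its change of response was -14.19. It was at 1.63 and 1.20 normalized counts in 2 of the libraries and at 210 and 510 in the other 2, its values were not whole fragments, and the difference was not tested.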

How the results depend on the processing

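The main counts were 22 genes with a change of at least 1 (larger) and 26 with one of at most -1 (smaller). With a pseudocount of 30 they came to 9 and 12, with a mean minimum of 30 to 116 and 71, with one of 500 to 2 and 7, and with no filter to 1444 and 1067. A call size of 1.5-fold gave 101 and 102, and one of 4-fold 1 and 4. Without genes of shared reads 14 larger and 20 smaller remained by count. In 2 alternatives chosen after seeing the data, requiring each of the 4 values to be at least 50 gave 13 and 12, and calling on the nearer counting bound gave 0 and 7. Upper-quartile scaling, equal totals, centring, a pseudocount of 0.5 and keeping lnc- models left both counts within 1.5 times. The share of genes higher with nutlin-3a that had a change above 0 (77.6%) stayed between 74.9% and 80%; that of genes lower with it (51.1%) was 45.9% with a mean minimum of 500. Of the 48 called genes, 21 kept the call at a pseudocount of 30; among those that lost it were E2F8, KIF4A, AURKB, MCM10, CLSPN, NUPR1, DTL, CDT1, FAM111B, COL17A1, SYTL2, CENPH and ZNF367, genes with few fragments in at least 1 library. The sign of a list's median differed for G2/M with each value at least 50 (0.01), AP-1 (0.08) and airway genes (0.0080) with a mean minimum of 500, hypoxia genes (0.0044) with no filter, and the respiratory chain (-0.00098) under upper-quartile scaling; with no filter the medians of secreted factors and airway genes were 0. No named gene changed sign under the pseudocounts, scalings and centring run. No paired analysis was possible because each group has 1 library, and no library could be left out of a difference that needs all 4.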
